A study of Homo sapiens with 4 samples.

Results

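The Ikaros family genes IKZF1, IKZF2 and IKZF3 were described by their H3K27ac peaks in REH and 697, established human cell lines of B-cell precursor acute lymphoblastic leukemia (BCP-ALL). REH carries the ETV6/RUNX1 fusion. 697 lacks it. Both lines were grown untreated in the same medium. Each line gave 1 H3K27ac ChIP library and 1 input library, so no value below has a replicate check and no test was made. For each gene the hg19 gene body, known to the nearest kb, was extended by 10 kb on each side, and every peak that overlapped this window by at least 1 bp was taken. The 3 windows held 46 of the 119130 peaks of both lists. REH gave 16 of its 44626 peaks and 697 gave 30 of its 74504 peaks.

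The Ikaros family encodes zinc finger transcription factors. Fingers near the N-terminus bind DNA with a GGAA-containing core, and fingers at the C-terminus pair family members with each other. IKZF1 (Ikaros) is needed for early lymphoid commitment and is often deleted in BCP-ALL. IKZF2 (Helios) is known mainly from T cells and blood stem cells, and IKZF3 (Aiolos) from the maturation of B cells. H3K27ac, acetylation of lysine 27 on histone H3, marks active promoters and enhancers. The peak lists locate the mark but hold no RNA level.

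The lists differed before any gene was chosen. Peaks covered 67.9 Mb in REH and 102 Mb in 697, a 697/REH ratio of 1.49. The ChIP libraries kept 65241657 tags in REH and 68911420 in 697. Over the whole lists 64.15% of REH peaks (95% Wilson interval 63.7 to 64.59) and 38.86% of 697 peaks (38.51 to 39.21) overlapped a peak of the other line. These intervals cover counting error only, and peaks of 1 library are not replicates. The deposited pileup values were hardly related between the lines at peaks that paired 1 to 1 (Spearman rho 0.025 over 24932 pairs), whereas lengths were (rho 0.473). Position and length were therefore used here, and peak height was not.

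Promoter sequences are shown for IKZF1 and IKZF2, which had entries in the RefSeq promoter table and had peaks of both lines at or near the 5′ end. IKZF3 had no entry. They are RefSeq sequences on GRCh38.p14, given 5′ to 3′ on the strand of the gene, and they were not placed on the hg19 peaks. Capitals mark CG dinucleotides and, on either strand, the letters TGGGAA (reverse TTCCCA, an Ikaros-type core) and TGTGGT (reverse ACCACA, a RUNX-type core). The IKZF1 stretch, chr7:50304466-50304677 on the plus strand, lies before the first listed start. The IKZF2 stretches lie on the minus strand, before the farthest upstream listed start (chr2:213152457-213152706) and before an inner start (chr2:213150438-213150687).
IKZF1, first start: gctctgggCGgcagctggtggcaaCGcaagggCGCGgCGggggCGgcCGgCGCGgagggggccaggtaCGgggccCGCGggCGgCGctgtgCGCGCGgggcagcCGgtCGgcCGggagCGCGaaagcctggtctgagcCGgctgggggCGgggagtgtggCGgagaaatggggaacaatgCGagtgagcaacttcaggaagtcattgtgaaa
IKZF2, upstream start: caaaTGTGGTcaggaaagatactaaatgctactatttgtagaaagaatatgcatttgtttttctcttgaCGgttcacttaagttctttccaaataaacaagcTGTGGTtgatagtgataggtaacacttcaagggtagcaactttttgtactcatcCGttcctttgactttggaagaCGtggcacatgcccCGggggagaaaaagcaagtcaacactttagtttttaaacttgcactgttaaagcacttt
IKZF2, inner start: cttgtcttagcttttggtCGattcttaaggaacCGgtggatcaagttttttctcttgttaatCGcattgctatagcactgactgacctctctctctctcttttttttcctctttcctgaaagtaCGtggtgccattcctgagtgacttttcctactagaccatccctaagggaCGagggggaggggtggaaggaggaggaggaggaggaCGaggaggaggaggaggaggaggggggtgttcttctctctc

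Within the 250 bases before the start, the first IKZF1 promoter had a GC content of 71.2% and 28 CG dinucleotides. Of 35116 promoters of 27305 genes, 18.1% had a GC content as high and 15.9% had as many CG dinucleotides. The upstream IKZF2 promoter had 38.0% GC and 4 CG dinucleotides, and 90.5% of promoters were as GC-rich. The inner IKZF2 promoter had 6 CG dinucleotides, and 68.1% of promoters were as GC-rich. The medians over all promoters were 58.0% GC and 11 CG dinucleotides. RefSeq lists further IKZF1 starts at 50308700 and 50319048. The promoter before the former had 45.2% GC and 3 CG dinucleotides, and the promoter before the latter had 32.8% GC and 0 CG dinucleotides. The first IKZF1 promoter thus lay above the median GC content, and the other IKZF1 promoters and both IKZF2 promoters lay below it.

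The letters TGGGAA occurred once in the first IKZF1 promoter, 32 bases before the start and beyond the printed stretch, and in neither IKZF2 promoter. They were also absent before the other IKZF1 starts, and were found in 20.8% of all promoters. TGTGGT occurred at IKZF1 and at IKZF2. The upstream IKZF2 promoter held it at 246 and 148 bases before its start, and the IKZF1 promoter before the start at 50308700 held it at 144 bases. At least 1 match was found in 11% of all promoters, and 0.971% held 2 or more. GGAA, which lies within TGGGAA, matched 3 times in the first IKZF1 promoter, 4 times in the upstream IKZF2 promoter and 6 times in the inner one, and at least once in 92.7% of all promoters. These matches describe letters and do not show binding.

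The 3 genes fell into 3 patterns. IKZF1 had the highest coverage of the 3 in both lines, IKZF2 had the lowest in both, and IKZF3 was covered more in 697 than in REH. Peaks covered 16.2% of the IKZF1 window in REH and 17% in 697. They covered 2.67% of the IKZF2 window in REH and 2.72% in 697. At IKZF3 they covered 5.18% in REH and 11% in 697.

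**Figure D1:**
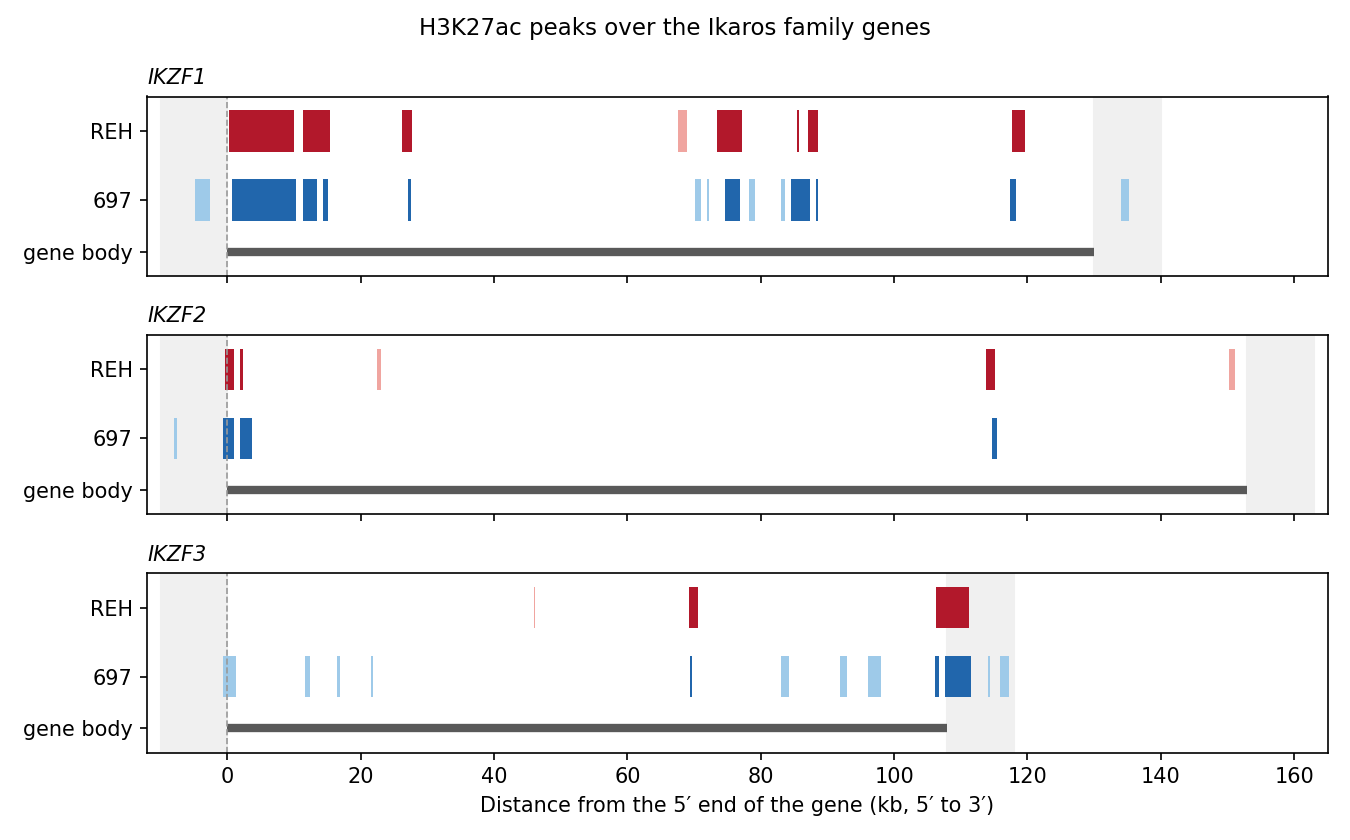
H3K27ac peaks of REH (red) and 697 (blue) along each gene, in kb from the 5′ end and drawn 5′ to 3′. Dark boxes are peaks that overlap a peak of the other line, pale boxes are peaks of 1 line, the dark bar is the hg19 gene body and grey bands are the 10 kb flanks. The 5′ end of IKZF3 (dashed line) carries a 697 peak and no REH peak.

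A locus was called differential when only 1 line had a peak or when the covered bases differed at least 2 times. By this rule 1 of the 3 genes, IKZF3, was differential. The rule is often met: it called 57.7% of genome tiles as wide as the IKZF1 window, 56.6% of those as wide as the IKZF2 window and 58.7% of those as wide as the IKZF3 window, among tiles with a peak in either line. A call at 1 of 3 genes was thus no more frequent than over the genome. Covered bases of REH divided by those of 697 came to 0.952 at IKZF1, 0.98 at IKZF2 and 0.471 at IKZF3.

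IKZF1, on the plus strand of chromosome 7 (window chr7:50333000-50483000, hg19), held 8 REH peaks with 24291 bp and 14 peaks with 25505 bp in 697. Tiles of this width had a median coverage of 1.8% in REH and 2.42% in 697. Coverage as high as at IKZF1 was found in 2.71% of tiles in REH and 6.91% in 697. Of the 8 REH peaks 7 overlapped a 697 peak, and of the 14 peaks in 697, 8 overlapped a REH peak. Bases covered in both lines came to 16564, which was 68.2% of the REH bases and 64.9% of the 697 bases at this gene.

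The longest IKZF1 peak started near the 5′ end in both lines, 226 bp (REH) and 754 bp (697) inside its kb-rounded position. The true end is known only to the nearest kb, so whether the peak lay across it cannot be told. The peak ran from 50343226 to 50353019 in REH (9794 bp) and from 50343754 to 50353343 in 697 (9590 bp). The peaks overlapped over 94.6% of the REH peak and 96.6% of the 697 peak. Only 0.625% of REH peaks and 0.507% of 697 peaks were as long. The peak took up 40.3% of the covered IKZF1 bases in REH and 37.6% in 697. With the gene body cut into 10 equal parts from 5′ to 3′ (deciles), 88.5% of bases of decile 1 were covered in REH and 87.0% in 697, the highest shares of any decile of the 3 genes.

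Farther into IKZF1 the lines shared several acetylated stretches that differed in extent. A REH peak of 4074 bp at 11.3 to 15.4 kb from the 5′ end overlapped 697 peaks of 2103 and 668 bp. Around 27 kb a REH peak of 1401 bp contained a 697 peak of 520 bp. Between 67.7 and 88.6 kb both lines had a group of peaks with different outlines. The REH peak at 73.4 to 77.3 kb (3824 bp) contained a 697 peak of 2210 bp, whereas the 697 peak at 84.5 to 87.4 kb (2950 bp) contained a REH peak of 398 bp. Decile 6 was covered to 38.9% in REH and 27.3% in 697, and decile 7 to 15.0% and 35.9%. Deciles 4, 5, 8 and 9 had no peak in either line. Deciles 4 and 5 lay in an empty stretch between the REH peak that ended at 50370637 and the one that started at 50410663. The gene body is 130 kb on hg19 but 101034 bp on GRCh38, so the builds differ in length here. Whether reads could map to the whole stretch on hg19 was not tested.

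Of the peaks of 1 line at IKZF1, 1 was from REH and 6 were from 697. The only REH peak without a 697 partner measured 1232 bp and lay 67.7 kb from the 5′ end. Of the 6 such 697 peaks, 4 lay in the gene body and measured 345 to 998 bp. The other two lay in the flanks, a peak of 2187 bp at -4.80 to -2.62 kb from the 5′ end (negative values lie before it) and a peak of 1236 bp beyond the 3′ end.

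IKZF2, on the minus strand of chromosome 2 (window chr2:213854000-214027000), held 5 REH peaks with 4614 bp and 4 peaks with 4709 bp in 697. Its coverage of 2.67% in REH and 2.72% in 697 was above the median of tiles of its width in both lines, 1.74% in REH and 2.35% in 697. Coverage at least as high was found in 37.5% of tiles in REH and 46.3% in 697. The longest peak measured 1366 bp in REH and 1783 bp in 697, and 39.0% of REH peaks and 22.7% of 697 peaks were as long. IKZF2 thus carried no long peak of the kind found at IKZF1, although its body of 153 kb is longer than the 130 kb of IKZF1.

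The IKZF2 peaks lay at the 5′ end and far inside the gene. Within 5 kb on each side of the 5′ end, 1808 of the 4614 bp covered in REH and 3519 of the 4709 bp covered in 697 were found. A peak lay across the kb-rounded 5′ end in both lines, from 214015970 to 214017292 in REH (1323 bp) and from 214015928 to 214017663 in 697 (1736 bp). The REH peak lay wholly within the 697 peak. A pair lay just inside the gene, 485 bp in REH and 1783 bp in 697. Another pair lay 114 to 115 kb from the 5′ end, 1366 bp in REH and 681 bp in 697. Of the 10 deciles, 6 had no peak in either line.

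Unshared IKZF2 peaks were few. REH had a peak of 566 bp at 22.4 to 23.0 kb and a peak of 874 bp near the 3′ end, at 150 to 151 kb. 697 had a peak of 509 bp at -8.06 to -7.56 kb. Bases covered in both lines came to 2251, or 31.8% of the bases covered in either. Both lists were empty over a long stretch that ran from inside the 3′ part of the gene to far beyond its 3′ end. No peak lay between 212918379 and 213865880 in REH (947502 bp) or between 212796242 and 213901635 in 697 (1105394 bp). On GRCh38 an antisense long noncoding RNA gene, ENSG00000270659, overlaps the 5′ end of IKZF2, so a peak there cannot be assigned to 1 of the genes. LINC01953 lies farther before the 5′ end, at 213155806-213167712, and ENSG00000273118 overlaps the 3′ end up to 213021545. The unshared peaks in the 5′ flank and near the 3′ end thus cannot be assigned to IKZF2 alone. These GRCh38 positions were not converted to hg19.

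**Figure D2:**
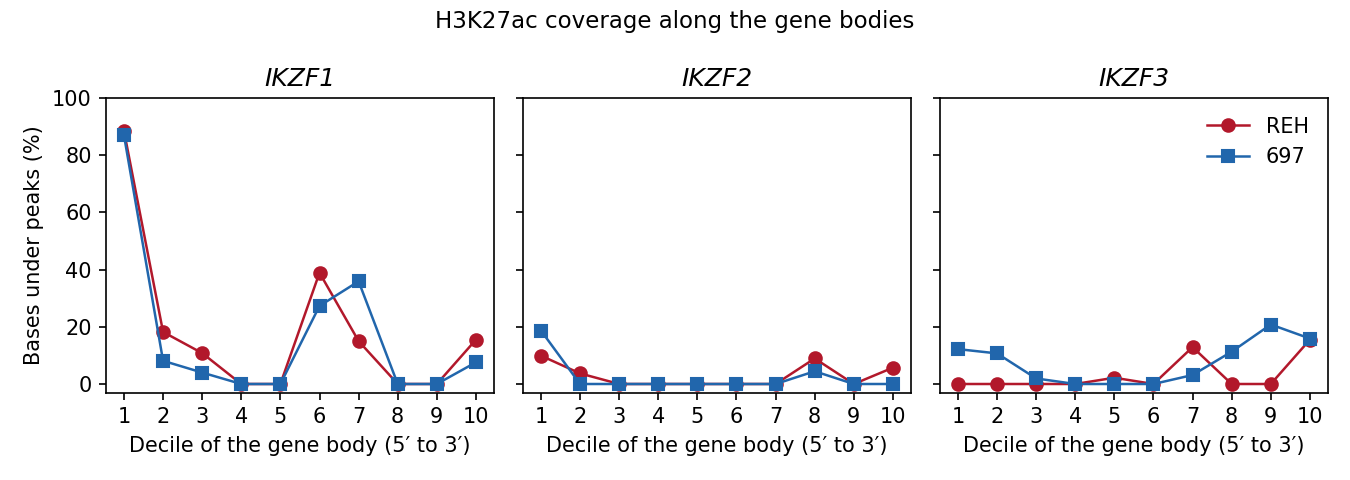
Bases under H3K27ac peaks (%) in each decile of the gene body, from 5′ to 3′, in REH (red circles) and 697 (blue squares). Both lines cover most of decile 1 of IKZF1, and REH has no peak in deciles 1 to 4 of IKZF3.

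IKZF3, on the minus strand of chromosome 17 (window chr17:37903000-38031000), held 3 REH peaks with 6629 bp and 12 peaks with 14089 bp in 697. Covered bases were 2.13 times as many in 697. Over tiles of this width with peaks in both lines, the median 697/REH ratio was 1.3. Of tiles with a peak in either line, 34.8% had at least 2.13 times as many covered bases in 697. The 34.8% includes the tiles without a REH peak, which made up 14.3% of tiles with a peak in either line. Of the 3 REH peaks 2 overlapped a 697 peak, whereas 9 of the 12 peaks in 697 had no REH partner. The call of IKZF3 as differential ended with peaks of at least 1000 bp only (REH/697 ratio 0.55), with equal peak numbers by length (0.57) and with peaks at a deposited false discovery rate (FDR) of at most 5% (0.586). The ratio stayed below 1 under each of these alternatives.

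The lines differed at the 5′ end of IKZF3. 697 had a peak of 1923 bp across its kb-rounded position, from 38019684 to 38021606, and REH had none within 10 kb on either side. The nearest REH peak, of 236 bp, lay 45.9 kb into the gene. It was followed by a stretch of 101571 bp without a REH peak, from 37975058 to 38076628, in which 697 had 7 peaks covering 4413 bp. The stretch ran beyond the IKZF3 window, which ends at 38031000, so these 7 peaks are not all among the 12 of IKZF3. Of 44602 gaps between neighbouring REH peaks, 12.9% were as long, and the median gap was 15.6 kb.

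Tiles with peaks of 697 only were common over the genome. Of 10 kb tiles with a peak in either line, 39.2% had a peak in 697 only. Among the 18579 tiles with at least 1923 bp under 697 peaks, 26.1% had no REH peak. These tiles lay anywhere in the genome. How often the 5′ end of a gene had a peak in 697 only was not tested. Within 5 kb on each side of the 5′ end, IKZF1 was covered to 47.8% in REH and 64.3% in 697, IKZF2 to 18.1% and 35.2%, and IKZF3 to 0 and 19.2%. Within this reach 697 thus had more covered bases than REH at each gene, as it had over the whole lists (697/REH ratio 1.49). At IKZF1 this depended on the reach, with 44.4% covered in REH and 31.2% in 697 within 2 kb. The 5 kb reach at IKZF1 took in the separate 697 peak of 2187 bp before the 5′ end. The FDR alternative was not run for this reach. Over the whole windows it lowered the 697 bases from 25505 to 16129 at IKZF1. At IKZF2 they fell from 4709 to 2926 and at IKZF3 from 14089 to 11315, with the REH bases unchanged at each gene.

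The 3′ end of IKZF3 was the stretch most alike in the lines. The longest IKZF3 peak of each line lay at this end, from 37909674 to 37914674 in REH (5001 bp) and from 37909355 to 37913433 in 697 (4079 bp). The end is known only to the nearest kb, so whether the 697 peak reached into the gene body is uncertain. The REH peak held 75.4% of the IKZF3 bases covered in REH, and 82.9% of it lay under this 697 peak and a neighbour of 484 bp. It was among the 3.28% longest REH peaks, and the 697 peak was among the 4.83% longest of its list. Decile 10 was covered to 15.5% in REH and 15.9% in 697. On GRCh38 the gene GRB7 lies 10426 bp beyond this end, and ZPBP2 starts 3889 bp beyond the 5′ end.

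Inside IKZF3 a REH peak of 1392 bp at 69.2 to 70.6 kb contained a 697 peak of 339 bp. Only 697 had peaks at 83 to 84.2 kb (1220 bp), 91.9 to 93.0 kb (1070 bp) and 96.0 to 98.0 kb (1980 bp). In deciles 8 and 9, 697 thus had 11.3% and 20.8% of bases covered and REH had 0. These shares count all deposited peaks. At a deposited FDR of at most 5%, 697 kept 9 of its 12 peaks and 11315 of 14089 bp in the IKZF3 window. Nearer the 5′ end, peaks of 689, 436 and 244 bp lay at 11.7, 16.4 and 21.6 kb in 697 only. Another pair of 697 peaks, 1352 and 273 bp, lay in the 3′ flank.

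**Figure D3:**
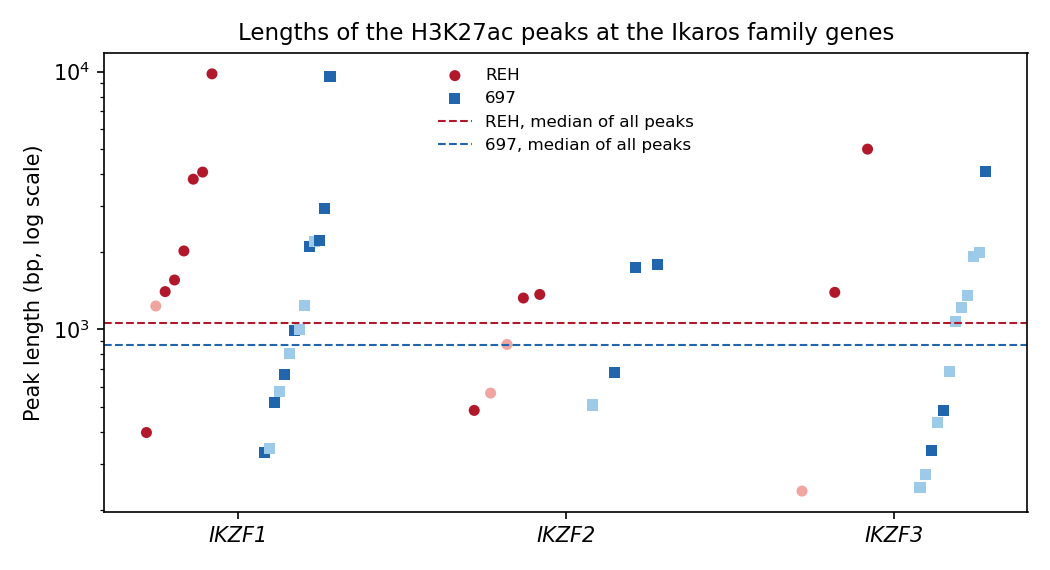
Length (bp, log scale) of each of the 46 peaks by gene, in REH (red circles) and 697 (blue squares), sorted by length within a gene. Dark points overlap a peak of the other line, pale points do not, and dashed lines are the medians of the whole lists (1060 bp in REH, 871 bp in 697). The longest peaks are the IKZF1 peaks of 9794 and 9590 bp.

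Over the 3 genes together, 12 of 16 REH peaks overlapped a 697 peak (75.0%, Wilson interval 50.5 to 89.82). Of the 30 peaks in 697, 14 overlapped a REH peak (46.7%, 30.23 to 63.86). The shares over the whole lists were 64.15% in REH and 38.86% in 697. Neighbouring peaks of a locus are not independent. For example, the REH peak of 4074 bp at IKZF1 overlapped 697 peaks of 2103 and 668 bp. The intervals for the 3 genes thus cover counting error only and do not test a difference from the whole lists. Covered bases totalled 35534 in REH and 44303 in 697. All 16 REH peaks had a deposited FDR of at most 5%, against 87.2% of the REH list. In 697 17 of 30 peaks did (56.7%, against 64.6% of the list): 5 of 14 at IKZF1, 3 of 4 at IKZF2 and 9 of 12 at IKZF3. The p-values in these lists, like the pileup values, were hardly related between the lines (rho 0.027), so counts by FDR are less certain than positions.

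**Figure D4:**
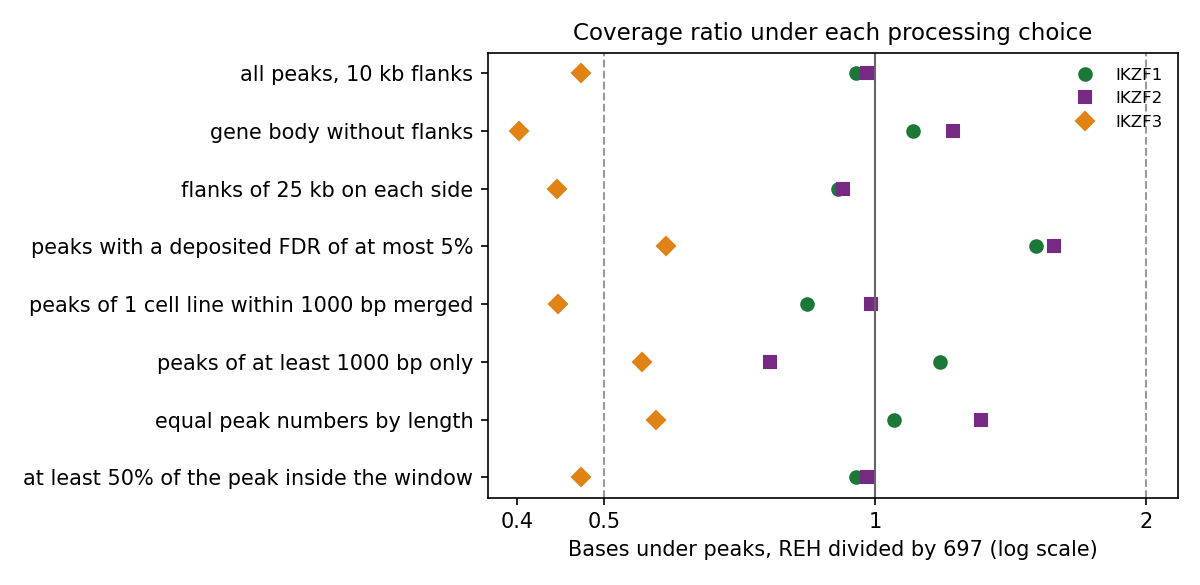
Bases under peaks in REH divided by those in 697 (log scale) for each gene under each processing choice. Dashed lines mark a difference of 2 times, beyond which a gene was called differential. IKZF3 lies below 1 under each choice (0.402 to 0.586), and IKZF1 and IKZF2 lie on both sides of 1.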

How the data were processed

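H3K27ac ChIP-seq was performed on REH and 697 cells with 1 ChIP and 1 input library per line. The submitters' processing notes name Bowtie2, MACS2 and hg19, whereas the study's methods name Bowtie and an earlier MACS. The deposited headers name MACS 2.1.0.20150731 in broad mode against the input, with 1 tag kept per position, fragment lengths of 187 bp (REH) and 185 bp (697) and q-value cutoffs of 0.05 and 0.1. For each peak the authors deposited position, length, pileup signal, fold enrichment as a ratio, the p-value as −log10 and an FDR. Pileup and −log10 p served only in a comparison between the lines, fold enrichment was not analysed, and the FDR served only in an alternative.

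Peaks were read as deposited, with Python 3.11.15, numpy 2.4.6, pandas 2.3.3 and scipy 1.17.1, and clipped to the windows for covered bases. Peaks overlapping by at least 1 bp were shared. Non-overlapping genome tiles as wide as each window gave the background. All 3 genes were named whatever their values. The genes, window bounds and motifs were chosen with earlier results of these data known. Strand, neighbours (GENCODE v44) and promoters (RefSeq) come from GRCh38 and were not converted to hg19. IKZF1 and IKZF2 had promoter entries. IKZF3 had none. IKZF4, IKZF5 and protein sequences were not analysed here. The scripts were tested on 20 simulated draws. Alternatives changed the flanks, the FDR, merging, peak length, list size and overlap. The reach around the 5′ end was changed after seeing the data.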

Additional observations from a re-analysis of the deposited data

How the results depend on the processing

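Of 42 alternative values, 31 moved by less than 1.5 times and 11 by more. With peaks at a deposited FDR of at most 5%, the REH/697 ratio of covered bases rose from 0.952 to 1.51 at IKZF1 and from 0.98 to 1.58 at IKZF2, and 0 genes were differential in place of 1. This alternative kept 17 of the 30 peaks of 697 and all 16 of REH. It is less certain than the others, because the pileup and p-values deposited beside the FDR were hardly related between the lines. The count of differential genes was also 0 with peaks of at least 1000 bp only and with equal peak numbers by length, since IKZF3 no longer reached a difference of 2 times. It was 1 without flanks, with flanks of 25 kb, with peaks within 1000 bp merged and with at least 50% of the peak inside the window. Requiring an overlap of 50% of the shorter peak left 12 shared REH and 14 shared 697 peaks. IKZF1 lay between 0.839 and 1.51, and IKZF2 between 0.764 and 1.58, so neither line was steadily higher at these genes. Without the FDR alternative the highest ratios were 1.18 at IKZF1 and 1.31 at IKZF2, still on both sides of 1. Covered shares around the 5′ ends moved with the reach, while REH stayed at 0 at IKZF3 for each reach run. No paired analysis was possible because each line had 1 ChIP library, and for the same reason no replicate could be left out. Positions of the gene ends are known to 1 kb, and peak lists do not show signal below the calling threshold.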
